A study of Mus musculus with 9 samples.

Results

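Suds3 and 9 genes for proteins that share the SIN3 histone deacetylase complex with its product were followed through 9 cerebellar RNA-seq libraries of a mouse model of spinocerebellar ataxia type 3. These 10 genes stood among 37816 genes in the count table, and all 10 were among the 19353 genes with enough reads to be tested. Suds3 was chosen because it was higher than 15Q in both 84Q groups. The 9 partners were chosen by their known place in the complex, with earlier results of these data known. The question was whether the partners followed Suds3.

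Spinocerebellar ataxia type 3 arises from an expanded CAG repeat in ATXN3, and the mice carry the human ATXN3 gene on a yeast artificial chromosome (YAC). The 15Q group (3 libraries) carried the transgene with 15 CAG repeats and the 84Q group (3 libraries) carried it with 84, both on a C57BL/6 background and both listed as untreated. The 84Q+IGF1 group (3 libraries) carried 84 repeats and was given IGF1, insulin-like growth factor 1, at 50 mg/kg weekly. The study's methods describe weekly intraperitoneal injections of PBS or IGF1 from 9 to 18 months of age, and tissue was taken at 18 months in all groups. The 15Q and 84Q mice are separate transgenic lines obtained from different sources, so the length of the repeat and other differences between the lines cannot be told apart. All 3 groups carry human ATXN3, and mice without the transgene were not analysed here.

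The SIN3 complex is a transcriptional corepressor without DNA binding of its own. The scaffold proteins SIN3A and SIN3B are recruited by transcription factors and bring the histone deacetylases HDAC1 and HDAC2 to promoters, where the removal of acetyl groups from histone tails is linked to lower transcription. SUDS3, also called SDS3, is a core subunit that holds the deacetylases to the scaffold and is needed for their activity in the complex, and BRMS1 and BRMS1L belong to the same protein family.

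Assigned read totals ranged from 17482654 to 58269196 per library, with medians of 40249019 in 15Q, 22808219 in 84Q and 26914560 in 84Q+IGF1. Levels are given as CPM, counts per 1000000 counts of a library total scaled by the TMM method. The granule cell markers summed to between 4247 and 4993 CPM in the 9 libraries and the Purkinje cell markers to between 5960 and 6669 CPM, and none of the 12 was at 0, so the defining markers of cerebellum were present in every group. Markers of tissues outside the brain moved with the groups. The 8 intestine and liver markers summed to between 38.0 and 63.2 CPM in 15Q and to between 5.31 and 6.77 CPM in both 84Q groups together. Fabp1, Cyp3a11 and Apoa4 were at 0 in every 84Q library, and Cyp3a11 and Apoa4 in every 84Q+IGF1 library. The 5 skeletal muscle markers summed to between 10.7 and 16.6 CPM in 15Q and to between 0.967 and 2.41 CPM in the 84Q groups. Choroid plexus markers were highest in 15Q replicates 1 and 3 and 84Q replicate 2, and the mice of a group also differed in Xist, which is high in females.

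Suds3 (ENSMUSG00000066900.11) lies on chromosome 5 of GRCm38, from 117091680 to 117116113 on the minus strand. In the 15Q libraries its level was 79.6, 83.4 and 73.2 CPM. The 84Q libraries had 133, 144 and 146 CPM. The 84Q+IGF1 libraries had 151, 132 and 149 CPM. The lowest library with the expanded repeat was thus above the highest 15Q library, and these levels rest on 2141 to 4351 reads per library. Because Suds3 was chosen for this difference, its size is given as a description with no test: the log2 fold change against 15Q was 0.84 (standard error 0.07) in 84Q and 0.87 (standard error 0.07) in 84Q+IGF1. Both values use the same 3 libraries of 15Q. In bulk tissue, fewer cells of a type and less RNA per cell cannot be told apart, which holds for every level given here.

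The mice of each group were of both high and low Xist, with 1 library in 3 of the 6 sets this gives, so the levels are listed with no comparison of sizes. Among libraries with high Xist, Suds3 was at 73.2 and 83.4 CPM in 15Q, 133 CPM in 84Q and 132 CPM in 84Q+IGF1. Among those with low Xist it was at 79.6 CPM in 15Q, 144 to 146 CPM in 84Q and 149 to 151 CPM in 84Q+IGF1. Without the 3 libraries richest in choroid plexus markers the log2 fold change was 0.75 in 84Q and 0.80 in 84Q+IGF1, the lowest values among the alternatives tried. This leaves 1 library in 15Q, replicate 2, which had the highest Suds3 level of its group, so those values are differences from that library. The part of the glial, intestine, liver and muscle markers in the difference was not tested.

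The effect of IGF1 treatment on Suds3 is also given as a description, since the levels of both 84Q groups entered its choice and a gene taken for being high in both is drawn towards no difference between them. The log2 fold change between 84Q+IGF1 and 84Q was 0.03 (95% interval -0.12 to 0.18). The 3 libraries of each group overlapped, and the interval reached from a 0.920-fold to a 1.13-fold level of the untreated 84Q mice. Over all genes, 0% were called in this comparison by edgeR, with 905 genes, or 4.68%, at an unadjusted p under 0.05, and DESeq2 called 6.

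**Figure D1:**
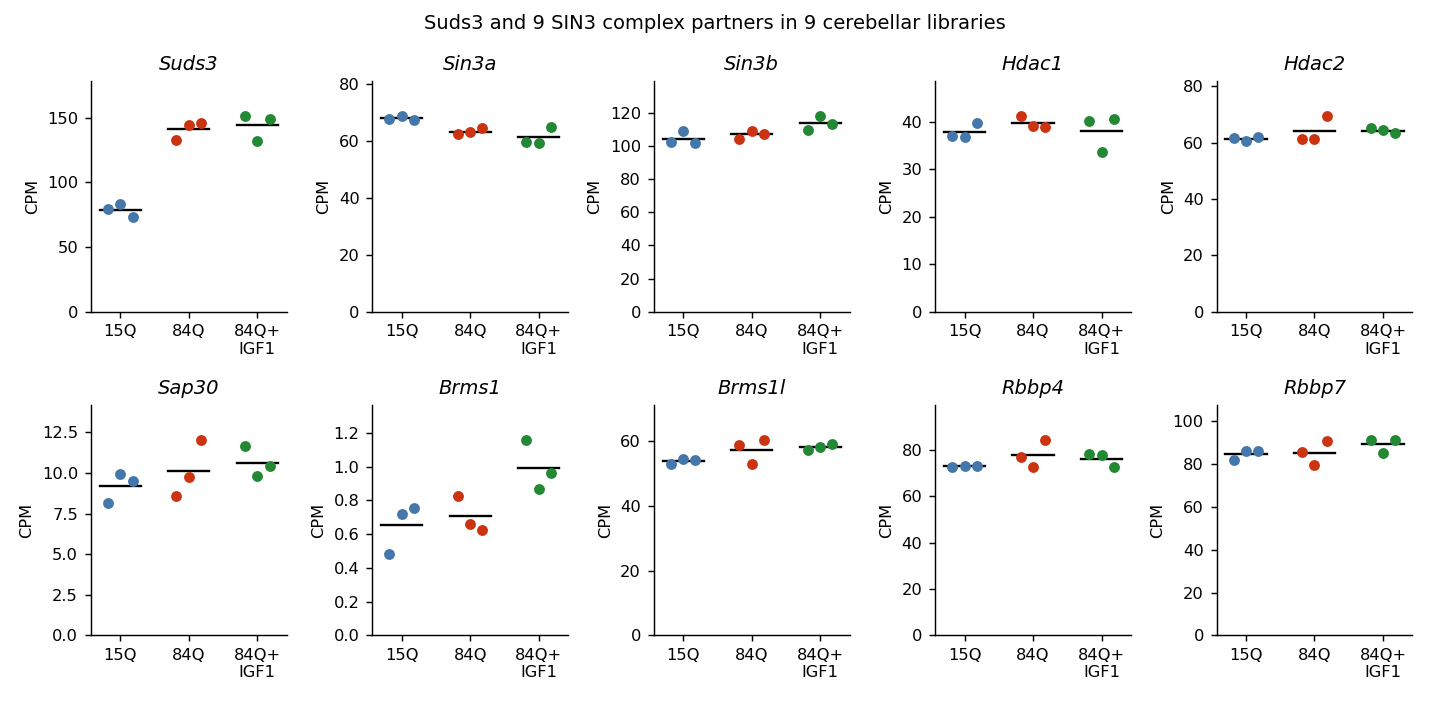
Level of Suds3 and the 9 partners in CPM (vertical axis, from 0) in each library of the 3 groups (points), with the group mean as a bar. For Suds3 the 6 libraries with the expanded repeat lie between 132 and 151 CPM, above the 15Q libraries at 73.2 to 83.4 CPM, while partner groups overlap or differ by less.

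None of the partners passed the test against 15Q. A gene was called when its adjusted p was under 0.1 and its level differed by at least 1.5-fold, the thresholds of the study's methods. By this rule edgeR called 0 of 9 partners in 84Q against 15Q, where 2.14% of all genes tested were called, and 0 of 9 in 84Q+IGF1 against 15Q, where 2.25% were. The partners with an unadjusted p under 0.05 numbered 0 and 2 in these comparisons, and DESeq2 also called 0 in each. The median log2 fold change of the 9 partners was 0.07 in 84Q and 0.08 in 84Q+IGF1, beside -0.002 and -0.005 over all genes tested, and 8 of 9 had a fitted value above 0 in each.

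The scaffolds had the lowest unadjusted p of the partners in 84Q+IGF1, with values of opposite sign. Sin3a had 67.9, 68.8 and 67.4 CPM in 15Q. It had 62.4, 63.2 and 64.7 CPM in 84Q and 59.8, 59.5 and 64.9 CPM in 84Q+IGF1. All 6 libraries with the expanded repeat were below all 3 of 15Q, but the log2 fold changes of -0.10 (95% interval -0.21 to 0.01, adjusted p = 0.299) in 84Q and -0.15 (-0.26 to -0.04, adjusted p = 0.167) in 84Q+IGF1 did not pass the test. In the average of both 84Q groups against 15Q, where 3.51% of genes were called, the Sin3a value was -0.12 (adjusted p = 0.121, edgeR). Sin3b had 102, 109 and 102 CPM in 15Q, 104, 109 and 107 CPM in 84Q and 110, 118 and 113 CPM in 84Q+IGF1, with log2 fold changes of 0.03 (adjusted p = 0.761) and 0.12 (adjusted p = 0.238). Its 84Q libraries overlapped those of 15Q, and its 84Q+IGF1 libraries lay just above them.

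The balance between Suds3 and Sin3a is given as a description. On the TPM scale, which divides reads by the summed exon length of a gene, the ratio of Suds3 to Sin3a was 0.550 ± 0.031 in 15Q, 1.06 ± 0.039 in 84Q and 1.12 ± 0.076 in 84Q+IGF1 (mean ± SD of the 3 libraries). The size of the ratio depends on the length used, while its course over the groups does not. Per kb of the longest protein-coding transcript, Suds3 was above Sin3a in every group, at 32.5 against 13.1 CPM per kb in 15Q and 58.2 against 12.2 CPM per kb in 84Q. The ratio follows from the choice of Suds3 and was given no test.

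Neither of the catalytic subunits passed the test. Hdac1 had 37.0, 36.9 and 39.7 CPM in 15Q, 41.2, 39.2 and 38.9 CPM in 84Q and 40.2, 33.6 and 40.6 CPM in 84Q+IGF1. Hdac2, its close paralogue, had 61.6, 60.5 and 62.1 CPM in 15Q, 61.5, 61.2 and 69.4 CPM in 84Q and 65.1, 64.6 and 63.4 CPM in 84Q+IGF1. The Hdac1 groups overlapped throughout. The Hdac2 libraries of 84Q+IGF1 were all above those of 15Q, by a log2 fold change of 0.07 (95% interval -0.06 to 0.19) that did not pass the test. Of the 31-base words in the annotated Hdac1 transcripts, 40.0% also occur in another gene, most of them in the processed pseudogene Gm10093, so reads from these stretches may be counted for either or for neither and the Hdac1 level is uncertain to that extent.

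Neither of the other members of the SUDS3 protein family passed the test. Brms1l, which can take the place of BRMS1 in the complex, had 53.0, 54.4 and 54.1 CPM in 15Q, 58.7, 52.9 and 60.4 CPM in 84Q and 57.2, 58.1 and 59.2 CPM in 84Q+IGF1. Its log2 fold changes were 0.09 (95% interval -0.04 to 0.22) and 0.11 (-0.02 to 0.24). Brms1 had few assigned reads, at 0.483, 0.720 and 0.753 CPM in 15Q, 0.828, 0.659 and 0.627 CPM in 84Q and 1.16, 0.866 and 0.960 CPM in 84Q+IGF1. The Brms1 libraries of 84Q+IGF1 were above those of both other groups, with a log2 fold change against 15Q of 0.57 (95% interval -0.01 to 1.15, adjusted p = 0.289). This rests on 11 to 44 reads per library, and 76.3% of the words in the Brms1 transcripts also occur in the overlapping gene AC124502.3 on the same strand, so the Brms1 counts are uncertain and its wide interval leaves little to be read from them.

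The adaptor and the histone-binding subunits did not pass the test either. Sap30, the adaptor that binds the scaffold and its recruiting factors, had 8.14, 9.96 and 9.49 CPM in 15Q, 8.59, 9.76 and 12.03 CPM in 84Q and 11.6, 9.79 and 10.4 CPM in 84Q+IGF1, with groups that overlapped. Rbbp4 ranged from 72.6 to 73.1 CPM in 15Q, from 72.6 to 84.3 CPM in 84Q and from 72.5 to 78.2 CPM in 84Q+IGF1. Rbbp7 ranged from 81.9 to 86.0 CPM in 15Q, from 79.6 to 91.0 CPM in 84Q and from 85.4 to 91.4 CPM in 84Q+IGF1. The products of both bind histones H3 and H4 and are shared with other complexes. The Rbbp4 and Rbbp7 groups overlapped throughout, and parts of both genes have copies in other transcripts. Of the Rbbp7 words, 11.6% occur on the same strand in Gm6382 and 4.91% on the opposite strand of other genes. Of the Rbbp4 words, 5.13% occur in other genes on the same strand and 19.0% on the opposite strand.

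The intervals set the size of change that these libraries could have missed. Leaving Brms1 aside, the upper bounds of the partners' 95% intervals reached at most 1.34-fold in 84Q and 1.41-fold in 84Q+IGF1 against 15Q, both for Sap30, while Suds3 was at 1.79-fold and 1.83-fold. Library by library, 0 of 9 partners lay wholly above 15Q in 84Q and 1 wholly below, beside 11.9% and 13.5% of all genes tested. In 84Q+IGF1, 4 lay wholly above 15Q and 1 wholly below, beside 11.7% and 13% of all genes. For both 84Q groups together, 0 of 9 partners were called by either tool and 1, Sin3a, lay wholly below, as did 6.37% of all genes. Between 84Q+IGF1 and 84Q, edgeR called 0 of 9 partners with 0 at an unadjusted p under 0.05, and DESeq2 called 0. Sin3b and Brms1 lay wholly above 84Q there, 2 of 9 beside 3.96% of all genes.

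**Figure D2:**
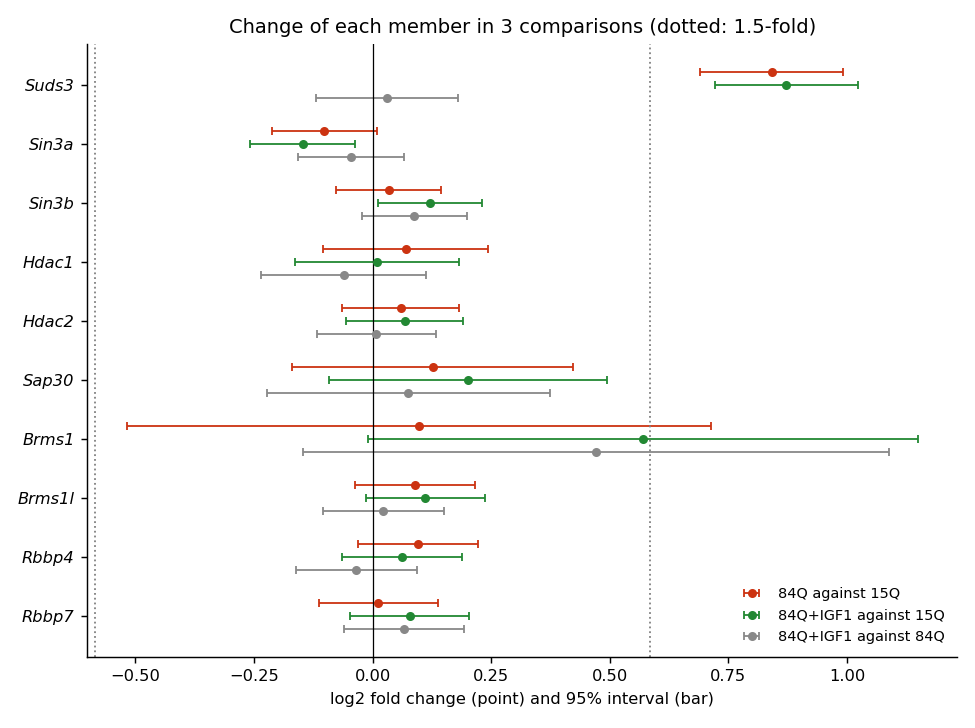
Log2 fold change (horizontal axis) of the 10 members in 3 comparisons, with the 95% interval as a bar and dotted lines at 1.5-fold in either direction. Suds3, whose values against 15Q are a description because it was chosen for them, lies at 0.84 and 0.87, and the partner intervals other than those of Brms1 stay within the dotted lines.

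The place of Suds3 among the members depended on how its length was counted. By TPM with the summed length of all annotated exons (11321 bases for Suds3, the longest of the 10), Suds3 ranked 9th of 10 in 15Q at 28.2 ± 1.57 TPM (SD, n = 3) and 5th in both 84Q groups at 48.8 ± 2.14 and 50.7 ± 3.51 TPM. Rbbp7 was highest in every group, at 118 ± 4.24 TPM in 15Q, followed by Brms1l at 63.2 ± 1.28 TPM, Sin3b at 57.5 ± 1.90 TPM and Hdac2 at 55.6 ± 1.28 TPM, of which the last pair lay within their spread of each other. Sin3a at 51.2 ± 0.422 TPM, Hdac1 at 44.6 ± 2.41 TPM, Rbbp4 at 33.8 ± 0.488 TPM and Sap30 at 31.6 ± 3.36 TPM came next, and Rbbp4, Sap30 and Suds3 were neighbours in 15Q with Sap30 overlapping both. Brms1 was lowest at 1.51 ± 0.351 TPM. In 84Q, Suds3 stood between Hdac2 at 56.1 ± 3.66 TPM and Sin3a at 46.2 ± 0.484 TPM, where the gap to Sin3a was close to the sum of both SDs, and in 84Q+IGF1 it stood above Sin3a at 45.5 ± 3.03 TPM with overlapping SDs. With the longest protein-coding transcript as the length (2425 bases for Suds3), Suds3 ranked 2nd in 15Q and 1st in both 84Q groups, so its rank is not settled by these counts, while comparisons of a gene between groups do not use the length.

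The genes around Suds3 were described next. Within 1 Mb of either end of Suds3 lay 38 genes of the table, of which 21 were tested. In 84Q against 15Q the called gene was 9530046B11Rik (ENSMUSG00000086047.1, chromosome 5 from 117115218 to 117118723, plus strand), an annotated antisense RNA that begins inside Suds3 and runs out past its start. It had 0.781, 0.993 and 0.735 CPM in 15Q, 1.31, 2.11 and 1.37 CPM in 84Q and 1.24, 1.47 and 1.61 CPM in 84Q+IGF1. Wholly above 15Q lay 11.9% of all genes in 84Q and 11.7% in 84Q+IGF1. All 6 libraries of 9530046B11Rik with the expanded repeat were above all 3 of 15Q, at 21 to 48 reads per library. In 84Q this was a log2 fold change of 0.93 ± 0.25 (standard error) with an adjusted p of 0.0857 by edgeR. In 84Q+IGF1 the value was 0.79 ± 0.25 with an adjusted p of 0.143, which was not called, and for both together it was 0.86 with an adjusted p of 0.0520.

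The call of 9530046B11Rik in 84Q was near the threshold. It was kept in 8 of 18 fits including the reported one, and the adjusted p ranged from 0.0409 to 0.767. It was lost when 15Q replicate 1, 2 or 3 was left out (log2 fold change 0.90, 1.08 and 0.84), without 84Q replicate 2 or 3 (0.68 and 1.02) and without 84Q+IGF1 replicate 2 (0.94, adjusted p = 0.101, edgeR). With the replicate number as a block (0.93, adjusted p = 0.124) or Xist as a covariate (0.89, adjusted p = 0.164) it was lost as well. The same held with only the compared groups in the fit (0.93, adjusted p = 0.109). Without the 3 libraries richest in choroid plexus markers the value was 0.43 (adjusted p = 0.767), set against 1 library of 15Q, replicate 2, which had the highest level of its group and is assumed in the fit to vary like the others. For both 84Q groups together it was lost without 15Q replicate 2 (1.01) or 3 (0.76) and with Xist as a covariate (0.82, adjusted p = 0.117, edgeR). Without the choroid-rich libraries the value for both together was 0.49.

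The 2 gene bodies overlap by 896 bases but their exons share 0 bases: 179 of the 1157 exonic bases of 9530046B11Rik lie inside Suds3, in introns, and 978 lie outside it. The library kit marks strand, but the strand setting of the counting is not given in the sources used here and without it unspliced Suds3 reads over those 179 bases cannot be told apart from reads of 9530046B11Rik. The 130 bases just before the outermost start of Suds3 in GENCODE, chr5:117116114-117116243 on the minus strand of GRCm38, lie in an intron of 9530046B11Rik and are shown because that transcript crosses them where Suds3 begins. The letters come from the RefSeq promoter window, whose own start of Suds3 lies further inside the gene. The capitals mark a GC box, GGGCGG read on the opposite strand:

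Suds3 upstream: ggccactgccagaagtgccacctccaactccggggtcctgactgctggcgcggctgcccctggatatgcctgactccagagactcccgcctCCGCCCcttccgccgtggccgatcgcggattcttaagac

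The GC content of this stretch was 66.9%. In promoter windows of 300 bases (RefSeq, GRCm38.p6), available for 8 of the 10 members, GGGCGG on either strand occurred in 7 of 8 member genes, beside 35.7% of 32851 promoters of the same length. CCAAT occurred in 4 of 8, beside 37.4%, and the E-box CACGTG, the site that MXD and MAX proteins bind, in 1 of 8 (Rbbp4), beside 7.15%. The 8 genes have 9 windows and are counted by gene, while the share of all promoters is counted by window. These matches describe letters in the windows and nothing more.

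No other tested gene of the window was called. The count was 1 of 21 in 84Q and 0 of 21 in 84Q+IGF1 by edgeR and by DESeq2 alike, beside 2.14% and 2.25% of all genes. By edgeR, 8 and 4 of the 21 had an unadjusted p under 0.05, beside 19.4% and 17.7% of all genes. Ksr2, named after its values were seen, had an adjusted p of 0.0888 in 84Q (edgeR). Its libraries there were all below those of 15Q, as were those of 13.5% of all genes. Its log2 fold change of -0.20 was short of the 1.5-fold threshold. The other 20 tested genes had log2 fold changes between -1.32 and 0.24 in 84Q and between -0.81 and 0.22 in 84Q+IGF1 against 15Q. Taok3, a kinase gene that begins 4016 bases past the start of Suds3, had 108, 128 and 119 CPM in 15Q, 99.3, 106 and 100.3 CPM in 84Q and 116, 99.4 and 119 CPM in 84Q+IGF1, with log2 fold changes of -0.21 (adjusted p = 0.164, edgeR) and -0.09 (adjusted p = 0.594). Its 84Q libraries lay below those of 15Q and its 84Q+IGF1 libraries overlapped them. On the other side the nearest tested gene was the pseudogene Gstm2-ps1, at 0.06 and 0.18 on the log2 scale with overlapping groups.

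**Figure D3:**
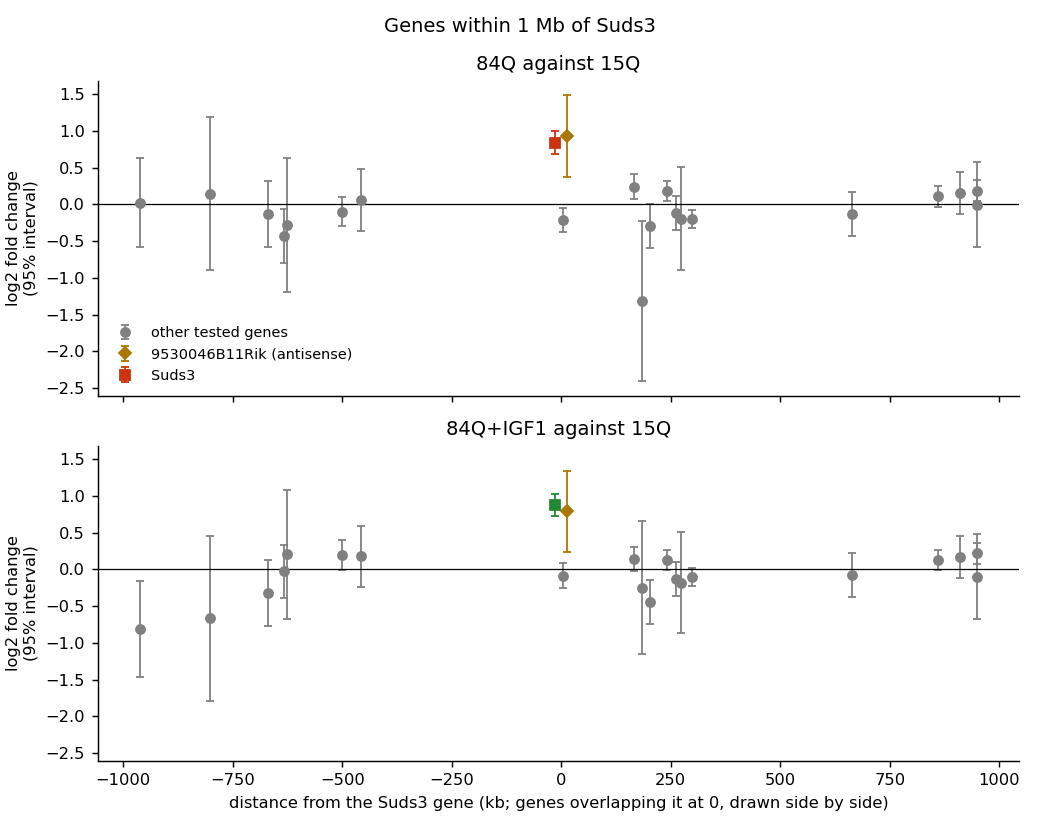
Log2 fold change with 95% interval (vertical axis) of the tested genes within 1 Mb of Suds3 against their distance from it in kb (horizontal axis), for 84Q (upper panel) and 84Q+IGF1 (lower panel) against 15Q. Suds3 and the antisense gene 9530046B11Rik stand at 0.84 and 0.93 in the upper panel and at 0.87 and 0.79 in the lower, above all other genes of the window.

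The genes with a pattern most like that of Suds3 were found by the smallest root mean square difference, over the 9 libraries, of log2 CPM taken from the mean of each gene in 15Q. Of 19352 genes compared, the nearest were Gm10593 (difference 0.216), 9530046B11Rik (0.216), Gm29562 (0.227), the aminoacylase gene Acy3 (0.233) and Gm29084 (0.241), and with DESeq2 size factors these 5 genes came out in the same order. Apart from Acy3 all are annotated as long noncoding RNAs, on chromosomes 4, 5, 9 and 1, and no partner was among them. Gm10593 had 10.1, 10.4 and 10.9 CPM in 15Q, 11.9, 20.6 and 18.8 CPM in 84Q and 18.8, 19.7 and 19.4 CPM in 84Q+IGF1, so that 84Q replicate 1 stood near 15Q. Acy3 had 2.08, 2.68 and 2.56 CPM in 15Q, 4.04, 4.92 and 3.93 CPM in 84Q and 3.39, 3.77 and 3.74 CPM in 84Q+IGF1, with no overlap between 15Q and the others. These genes were picked for their likeness on the same libraries, so no test is drawn from the likeness, and 9530046B11Rik was tested above as a neighbour of Suds3.

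**Figure D4:**
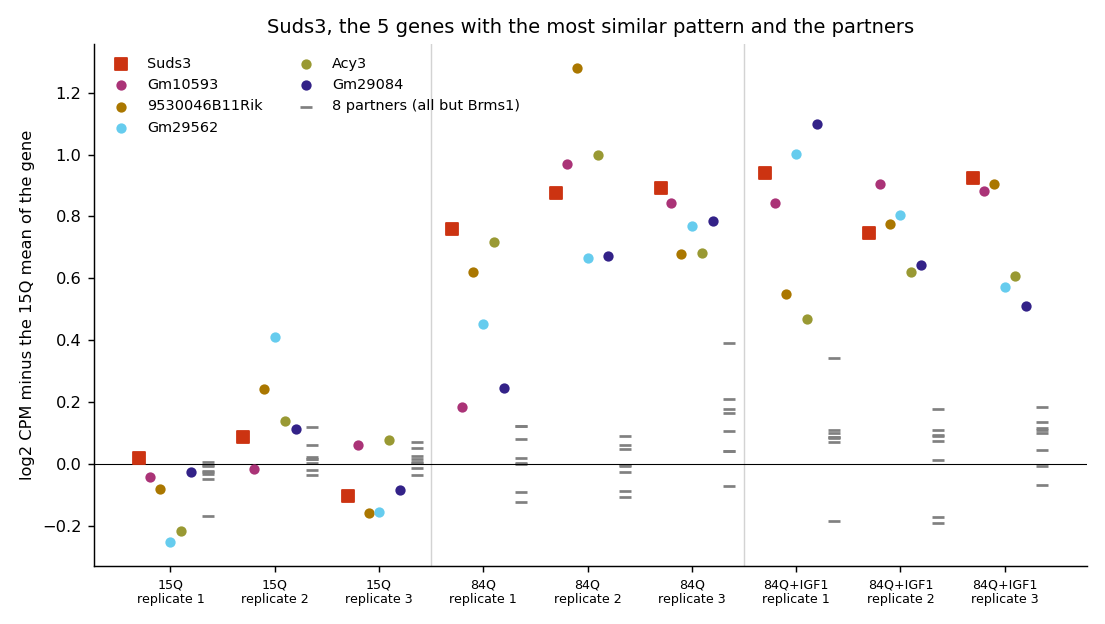
Log2 CPM minus the gene's own 15Q mean (vertical axis) in each of the 9 libraries (horizontal axis) for Suds3 (squares), the 5 genes with the most similar pattern (dots) and 8 partners (dashes, Brms1 left out for its low counts). Suds3 and the 5 genes lie above the 15Q level in all 6 libraries with the expanded repeat, and the partners stay near 0.

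The wider corepressor machinery was then read from 8 lists chosen by function, with earlier results of these data known. They were the other SIN3 subunits, the factors that recruit SIN3, the complexes NuRD, CoREST, MiDAC and NCoR, the other histone deacetylases and the histone acetyltransferases. NuRD, CoREST and MiDAC also use HDAC1 and HDAC2, NCoR uses HDAC3, and the acetyltransferases do the opposite reaction. The lists held 73 genes of the table and 70 were tested. edgeR called 0 of 70 in 84Q and 0 of 70 in 84Q+IGF1 against 15Q, with 18 and 8 at an unadjusted p under 0.05, beside 19.4% and 17.7% of all genes. DESeq2 also called 0 in each. The median log2 fold changes were -0.02 and -0.01, and that between 84Q+IGF1 and 84Q was 0.03 with 0 called and 2 at an unadjusted p under 0.05.

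Among the other SIN3 subunits, 15 of 16 were tested and 0 were called in any comparison. Those with the highest TPM were Ogt, the enzyme that adds GlcNAc to proteins, Phf12 and Morf4l1, and their log2 fold changes against 15Q were -0.16, 0.02 and 0.11 in 84Q and -0.07, 0.04 and 0.13 in 84Q+IGF1. Kdm5a and Arid4a are named after their values were seen. Kdm5a, a demethylase of histone H3 lysine 4 that joins the complex, had 55.5, 58.5 and 64.8 CPM in 15Q, 49.7, 46.2 and 40.6 CPM in 84Q and 40.7, 54.5 and 48.5 CPM in 84Q+IGF1. All 6 libraries with the expanded repeat were below those of 15Q, as were those of 6.37% of all genes. Its log2 fold change of -0.39 in 84Q had an adjusted p of 0.0869 and so met the threshold on p but not that on fold, and in 84Q+IGF1 it was -0.32 (adjusted p = 0.155, edgeR). Arid4a was at -0.31 in 84Q (adjusted p = 0.0865, edgeR) and -0.22 in 84Q+IGF1 (adjusted p = 0.206).

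No gene of the recruiters or the sister complexes was called. Of the recruiters, 11 of 12 were tested, 0 were called, and those with the highest TPM were Max, Foxk2 and Mxd4, at 0.03, 0.08 and 0.01 in 84Q on the log2 scale and 0.07, 0.08 and 0.04 in 84Q+IGF1. Chd4, Mbd3 and Chd3 of NuRD were at -0.14, 0.17 and -0.05 in 84Q and at -0.08, 0.15 and -0.03 in 84Q+IGF1. Phf21a and Kdm1a of CoREST lay between -0.03 and 0.10 in these comparisons, Elmsan1, Dnttip1 and Trerf1 of MiDAC between -0.15 and 0.04, and Ncor1 and Gps2 of NCoR between -0.23 and 0.17.

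Of the other histone deacetylases 9 of 9 were tested and 0 were called. Hdac11, Hdac5 and Hdac3, those with the highest TPM, were at 0.06, 0.06 and 0.15 in 84Q and 0.07, 0.07 and 0.16 in 84Q+IGF1 on the log2 scale. Hdac10, a cytoplasmic deacetylase of polyamines named here after its values were seen, had 22.6, 23.3 and 22.7 CPM in 15Q, 28.1, 25.8 and 27.4 CPM in 84Q and 26.8, 26.0 and 27.0 CPM in 84Q+IGF1. It was above 15Q in all 6 libraries, at 0.24 (adjusted p = 0.0955, edgeR) and 0.22 (adjusted p = 0.142), under the fold threshold. Over all genes, 11.9% lay wholly above 15Q in 84Q and 11.7% in 84Q+IGF1. The share of genes with an adjusted p under 0.1 at any fold is not reported here. Nothing is therefore read from that mark for Hdac10, Kdm5a, Arid4a or Ksr2. Of the acetyltransferases Kat6a, Kat2b and Kat7 had the highest TPM and were at -0.28, -0.02 and 0.05 in 84Q and -0.17, 0.02 and 0.06 in 84Q+IGF1.

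**Figure D5:**
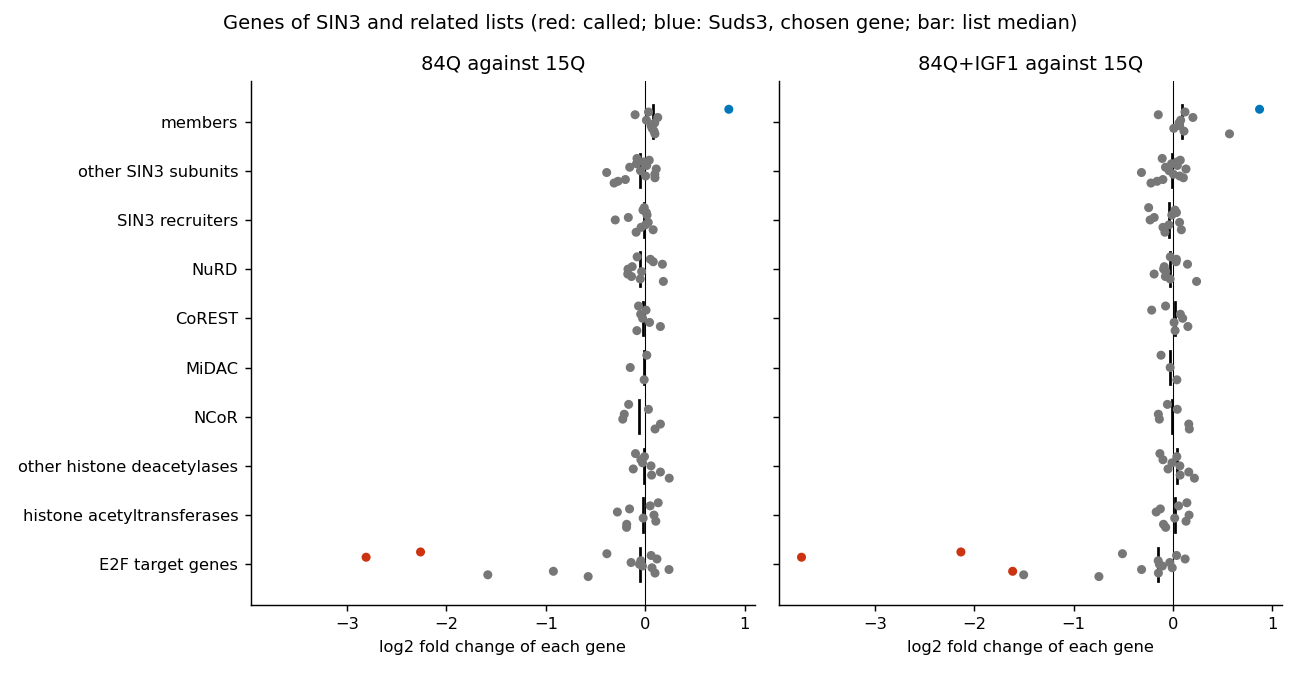
Log2 fold change (horizontal axis) of each tested gene of the members, the 8 corepressor and acetyltransferase lists and the E2F target genes (rows), for 84Q and 84Q+IGF1 against 15Q, with called genes in red, Suds3 in blue because it was chosen for these values and has no call here, and the list median as a bar. Suds3 lies at 0.84 and 0.87, and the called genes are a few E2F target genes between -3.74 and -1.61.

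The E2F target genes, cell cycle genes at which SIN3 complexes are known to act, held the calls of these lists. This list too was chosen with earlier results of these data known, and a link of its values to Suds3 was not tested. Of 15 tested, 2 fell in 84Q (Mki67 and Top2a), 3 fell in 84Q+IGF1 (Cdk1, Mki67 and Top2a) and 5 fell in both 84Q groups together (Ccna2 and Ccnb1 besides), while 1.9%, 2.06% and 3.23% of all genes were called lower in these comparisons. DESeq2 called 2, 4 and 5 of the list. The median of the list was -0.06 in 84Q and -0.15 in 84Q+IGF1 on the log2 scale. Before scaling for depth, which had its highest median in 15Q, Mki67, the gene of the proliferation marker Ki-67, had 98, 205 and 399 reads in 15Q, 16, 11 and 23 in 84Q and 7, 4 and 20 in 84Q+IGF1. Its log2 fold change was -2.81 (adjusted p = 0.00479, edgeR) in 84Q and -3.74 (adjusted p = 0.000898) in 84Q+IGF1. Top2a, the topoisomerase of dividing cells, had 1.71, 2.93 and 3.54 CPM in 15Q, 0.552, 0.220 and 1.03 CPM in 84Q and 0.472, 0.602 and 0.788 CPM in 84Q+IGF1, at -2.26 (adjusted p = 0.0185) and -2.13 (adjusted p = 0.0167) by edgeR.

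The replication genes of the same list did not pass the test. Pcna, the sliding clamp of DNA replication, had 29.6, 31.7 and 32.0 CPM in 15Q and between 28.6 and 35.7 CPM in the other libraries, and the 6 Mcm helicase genes lay between -0.15 and 0.12 on the log2 scale in the comparisons of each 84Q group with 15Q. The called E2F target genes moved with the intestine and liver markers, of which 7 of 7 tested fell in each 84Q group, and with the skeletal muscle markers, of which 5 of 5 fell, and the part of those tissues in the E2F values was not tested. Without the 3 libraries richest in choroid plexus markers 0 E2F target genes were called in 84Q, with Mki67 at -2.52 (adjusted p = 0.175, edgeR) and Top2a at -1.94 (adjusted p = 0.184), a setting that leaves 1 library in 15Q. Cdk1 in 84Q+IGF1 kept its direction but lost its call when any of the 15Q or 84Q+IGF1 libraries was left out (log2 fold change -1.51 to -1.73), and with Xist as a covariate (-1.60, adjusted p = 0.104). For both 84Q groups together, Ccna2, Ccnb1 and Cdk1 lost their calls without 15Q replicate 2 or 3, which left 2 genes called. Ccnb1 also lost its call without 84Q replicate 3 (-1.49) and with Xist as a covariate (-1.52), and Ccna2 without 84Q+IGF1 replicate 2 (-0.56). Between 84Q+IGF1 and 84Q, 0 of 15 were called by edgeR, with 1 at an unadjusted p under 0.05, and 0 by DESeq2.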

How the data were processed

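Cerebellar RNA of 9 mice was sequenced from strand-specific, paired-end libraries. The authors trimmed reads with Trimmomatic (0.36), aligned them to GRCm38.p6 with HISAT2 (2.2.0) and deposited whole-number counts per gene from featureCounts; the annotation release, strand setting and treatment of multiply mapped reads are not given in the sources used here. The numbering of replicates comes from the labels. Each library is 1 mouse, as far as the study's methods state it, and p-values measure the spread between these libraries.

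Gene positions, lengths and symbols were taken from GENCODE vM21 (GRCm38), which held 37681 of the 37816 genes. Counts of all 9 libraries were fitted together with edgeR (4.0.16, R 4.3.3), with TMM scaling, filterByExpr and a quasi-likelihood test per gene, which was tested on simulated data. P-values were adjusted by Benjamini-Hochberg over the 19353 genes tested, and intervals are 95% t intervals. Log2 CPM used a prior count of 2. TPM and words of 31 bases used the annotated exons and transcripts. Libraries were compared pairwise within groups, and none was a duplicate.

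The members and lists were chosen with earlier results of these data known. Named genes were all members, the called genes of each list or else at most 3 with the highest mean TPM, the called and nearest tested genes around Suds3, and the 5 genes most like it. Some genes that this rule selects are not reported here. DESeq2 (1.42.0), other scalings, filters and thresholds, a replicate block, Xist as a covariate and the omission of libraries were tried as alternatives.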

Additional observations from a re-analysis of the deposited data

How the results depend on the processing

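No gene value that passed the test changed its direction under any alternative. The 9 partners gave 0 calls in every comparison under each alternative tried, and the Suds3 log2 fold change stayed between 0.75 and 0.89 in 84Q and between 0.80 and 0.94 in 84Q+IGF1 against 15Q. The lowest of these, 0.75, came without the 3 libraries richest in choroid plexus markers, an alternative chosen after seeing the data that leaves 1 library in 15Q. For the genes of the pathway lists in 84Q against 15Q (2 called), 5 were called with no fold threshold and 0 without the choroid-rich libraries, and in 84Q+IGF1 (3 called) 5 were called with no filter on low counts. For both 84Q groups together (5 called) the count was 3 at an adjusted p under 0.05, 8 with no fold threshold, 2 without the choroid-rich libraries and 2 to 5 with single libraries left out. For the genes near Suds3 in 84Q (1 called) the count was 0 at an adjusted p under 0.05, with Xist as a covariate, with only the compared groups and without the choroid-rich libraries, 2 with no fold threshold or no filter, and 0 to 1 with single libraries left out. In 84Q+IGF1 (0 called) the leave-one-out count was 0 to 1, the gene being Vsig10 at -0.60. For both together (1 called) it was 0 at an adjusted p under 0.05, with Xist or without the choroid-rich libraries, 4 with no fold threshold, and 0 to 1 with single libraries left out. The fewer calls with libraries left out come with fewer samples, and the cause of the others was not tested. The share of all genes called with no fold threshold is not reported here.

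The replicate numbers did not pair the libraries: deviations of same-numbered libraries correlated between -0.309 and 0.0788. With the replicate number as a block, 0 genes near Suds3 were called in 84Q and 3 pathway genes in both 84Q groups together, and Cdk1 lost its call in 84Q+IGF1 (-1.63, adjusted p = 0.122). Depth limits the low genes, such as Brms1 and 9530046B11Rik at 11 to 48 reads per library and Mki67 at 4 to 23 in the 84Q groups.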
